A study of Homo sapiens with 16 samples.

Results

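The genes described are 9 genes of bone morphogenetic protein (BMP) signalling: the ligands BMP2 and BMP4, the type II receptor BMPR2, the inhibitors SMAD6 and BAMBI, and the target genes ID1, ID2, ID3 and ID4. They were taken by name, and all 9 had a row among the 18227 genes measured. Their messenger RNA was measured by RNA sequencing in A549 and H2023, which are human lung adenocarcinoma cell lines. The 16 libraries formed 8 groups of 2: each line, wild type or labelled as a knockout of ZC3H12A, after 3 days of normal culture or 7 days of stem-cell-enriched (oncosphere) culture. ZC3H12A encodes Regnase-1, an endoribonuclease that degrades messenger RNAs. The knockout cells of each line came from 1 clone according to the sample titles, so genotype and clone cannot be told apart. Culture condition and days in culture changed together and cannot be told apart either. Nothing in the labels says whether the 2 libraries of a group came from separate cultures, so the p-values measure the spread between libraries, which may be technical.

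BMP ligands are secreted proteins that bring type I and type II receptors together on the cell surface. The activated type I receptor phosphorylates SMAD1, SMAD5 and SMAD9, which enter the nucleus with SMAD4 and bind DNA. The ID genes are classic direct targets: they encode proteins with a helix-loop-helix but no DNA-binding region, which bind E proteins and keep them off DNA. SMAD6, an inhibitory SMAD, and BAMBI, a membrane pseudoreceptor without a kinase, are induced by the pathway and dampen it. In epithelial tumours ID proteins are known for links to proliferation and to undifferentiated states.

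ID1, ID2, ID3 and SMAD6 are target and feedback genes with calls in the culture results below, though not the only ones. The 250 bases upstream of their start sites are shown (RefSeq, GRCh38.p14, 5′ to 3′ on the strand of the gene). They lie at chr20:31605039-31605288 (plus strand) for ID1, chr2:8681806-8682055 (plus) for ID2, chr1:23559502-23559751 (minus) for ID3 and chr15:66701986-66702235 (plus) for SMAD6. Capitals mark matches to GTCTAGAC (the palindromic SMAD-binding element), CAGAC or its other strand GTCTG (the short SMAD-binding box, which GTCTAGAC does not contain) and GGCGCC (a GC-rich BMP-responsive motif).
ID1: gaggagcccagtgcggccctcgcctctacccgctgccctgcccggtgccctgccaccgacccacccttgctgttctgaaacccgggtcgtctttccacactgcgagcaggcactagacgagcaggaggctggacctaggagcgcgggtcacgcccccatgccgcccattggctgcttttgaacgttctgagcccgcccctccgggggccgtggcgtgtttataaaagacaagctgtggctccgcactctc
ID2: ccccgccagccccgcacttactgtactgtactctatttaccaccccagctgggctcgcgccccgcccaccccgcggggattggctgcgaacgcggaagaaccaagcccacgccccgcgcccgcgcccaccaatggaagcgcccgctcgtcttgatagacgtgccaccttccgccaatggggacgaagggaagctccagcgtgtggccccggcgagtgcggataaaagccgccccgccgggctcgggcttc
ID3: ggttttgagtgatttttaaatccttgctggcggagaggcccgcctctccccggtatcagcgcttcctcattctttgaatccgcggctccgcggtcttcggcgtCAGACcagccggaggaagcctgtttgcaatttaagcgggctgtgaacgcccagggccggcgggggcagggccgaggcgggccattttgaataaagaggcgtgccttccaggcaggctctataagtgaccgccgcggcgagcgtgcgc
SMAD6: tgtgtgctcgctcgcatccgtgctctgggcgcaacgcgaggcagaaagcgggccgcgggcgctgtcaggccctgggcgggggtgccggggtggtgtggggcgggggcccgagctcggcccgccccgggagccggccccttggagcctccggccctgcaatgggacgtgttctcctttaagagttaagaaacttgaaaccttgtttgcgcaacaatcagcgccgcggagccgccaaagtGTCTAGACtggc
The SMAD6 window held GTCTAGAC, starting 12 bases before the start site; 0.183% of 34943 RefSeq promoter windows of the same length held it on either strand. The ID3 window held 1 short box, 147 bases before the start site, a match found in 38.0% of windows. GGCGCC, found in 16.4% of windows, was not among these 250 bases of the 4 genes, and the ID1 and ID2 windows held none of the 3 motifs. The BAMBI window, not shown, held GGCGCC 3 times and the short box 2 times. The BMPR2 window and 1 of the BMP4 windows, also not shown, each held GGCGCC 1 time. Short boxes were also in windows of ID4, BMP4 and BMPR2. These counts describe the letters in the windows and nothing about binding. Windows were found for 8 of the 9 genes.

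By GENCODE annotation on GRCh38, all 9 are protein-coding genes. ID1 lies at chr20:31605283-31606515 and BMP2 on the same chromosome at chr20:6767664-6780280. ID2 lies at chr2:8678845-8684453 and BMPR2 at chr2:202376936-202567751. ID3 lies at chr1:23557918-23559794, ID4 at chr6:19837386-19840684 and BMP4 at chr14:53949736-53958761. SMAD6 lies at chr15:66702228-66782848 and BAMBI at chr10:28677342-28682939. ID2 overlaps the antisense gene ID2-AS1, ID4 overlaps the antisense gene AL022068.1 and BMPR2 overlaps the pseudogene AC073410.2, each on the opposite strand. On the same strand BMPR2 overlaps the pseudogene AC073410.1 and SMAD6 the sense intronic gene AC013564.1. The libraries were stranded by kit, but whether the counting used strand is not given in the sources used here.

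Levels are given in TPM, a relative transcript abundance that is scaled for transcript length and for library size and keeps no depth, so the depth of each library is unknown and no counting interval can be given. The number of genes at 1 TPM or more ran from 13824 to 14508 per library. The 5 epithelial markers EPCAM, KRT8, KRT18, KRT19 and CDH1 each reached 1 TPM in at least 1 library, with sums of 1450 to 10677 TPM. KRT8 and KRT18 were never below 765 and 666 TPM, whereas EPCAM and KRT19 fell as low as 0.37 and 0.29 TPM. In A549 normal culture labelled knockout the means of EPCAM and KRT19 were 0.65 and 0.48 TPM. The lung marker NAPSA reached only 1.02 to 6.03 TPM, and 5 other lung markers were not analysed here. Summed fibroblast markers ranged from 1.34 to 10.1 TPM, and PECAM1, an endothelial marker, from 0 to 2.76 TPM. Of the leukocyte markers, CD14 and CD68 summed to 31.3 to 226.5 TPM; PTPRC and CD3E were not analysed here. Mitochondrial genes made up 10.3% to 18.7% of TPM in the normal-culture libraries and 19.5% to 25.6% in the stem-cell-enriched ones, a gap that separates the cultures and whose part in the culture results was not tested. ZC3H12A itself was lower in the libraries labelled knockout of A549 in normal culture (16.9 and 19.9 against 30.7 and 34.9 TPM). In the other 3 comparisons ZC3H12A was higher under the knockout label, at most 94.6 TPM, so messenger RNA level does not check those labels.

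The 2 H2023 libraries from stem-cell-enriched culture of each genotype stood apart from each other in the ID genes. In wild type, library 1 exceeded library 2 by 1.96 for ID1, 1.59 for ID2 and 2.31 for ID3 on the log2(TPM + 1) scale, where the SD of that difference over 13917 genes was 0.44. In the libraries labelled knockout the same differences were 1.34, 1.31 and 1.13, with an SD of 0.38 over 14007 genes. Library 1 was thus the higher one for these 3 genes in both genotypes. In wild type, 0.417%, 0.848% and 0.223% of genes differed more than ID1, ID2 and ID3, and in the libraries labelled knockout 0.842%, 0.95% and 1.47% did. For H2023 in this culture the lowest and highest values with 1 library left out are therefore given beside the ID1, ID2 and ID3 results.

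**Figure D1:**
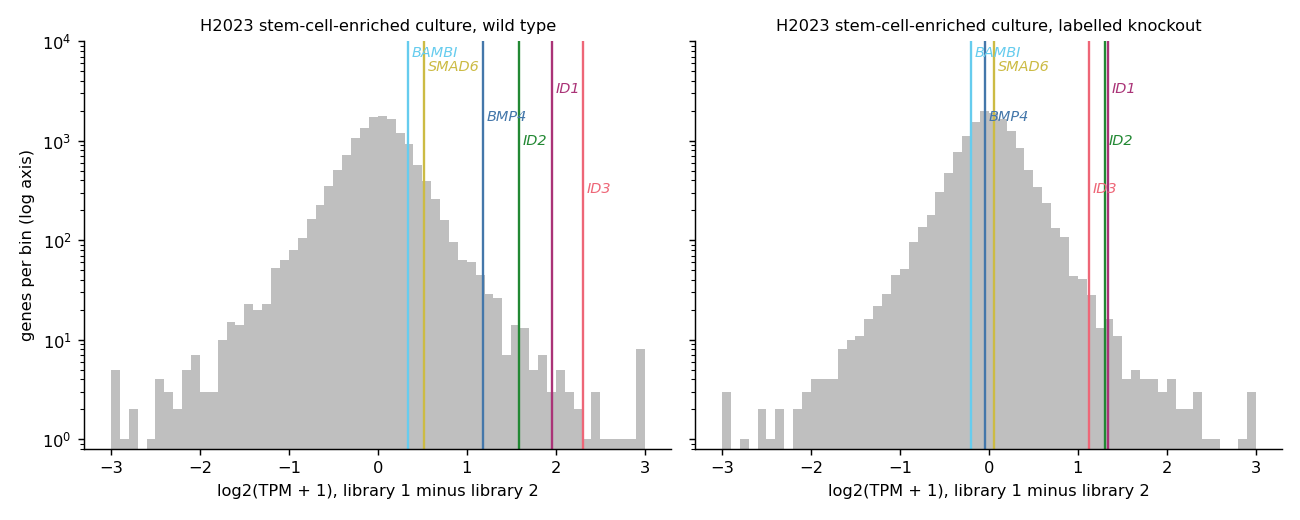
Distribution over genes of the difference between library 1 and library 2 in H2023 stem-cell-enriched culture (x axis, log2(TPM + 1); y axis, genes per bin of 0.1 on a log axis; values beyond 3 are counted in the end bins), for wild type (left) and libraries labelled knockout (right). Lines mark 6 of the 9 genes. ID1, ID2 and ID3 lie in the right tail in both genotypes, at 1.59 to 2.31 in wild type and 1.13 to 1.34 in the libraries labelled knockout.

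The levels of the 9 genes spanned a wide range. ID1 and ID3 were the highest, with means over the 8 groups of 383 and 265 TPM, followed by ID2 at 84.6 TPM. BAMBI averaged 26.96, BMP4 19.9, SMAD6 18.1 and BMPR2 10.9 TPM. BMP2 at 2.56 and ID4 at 1.4 TPM were the lowest. In bulk samples, fewer cells that express a gene and less RNA per cell cannot be told apart.

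**Figure D2:**
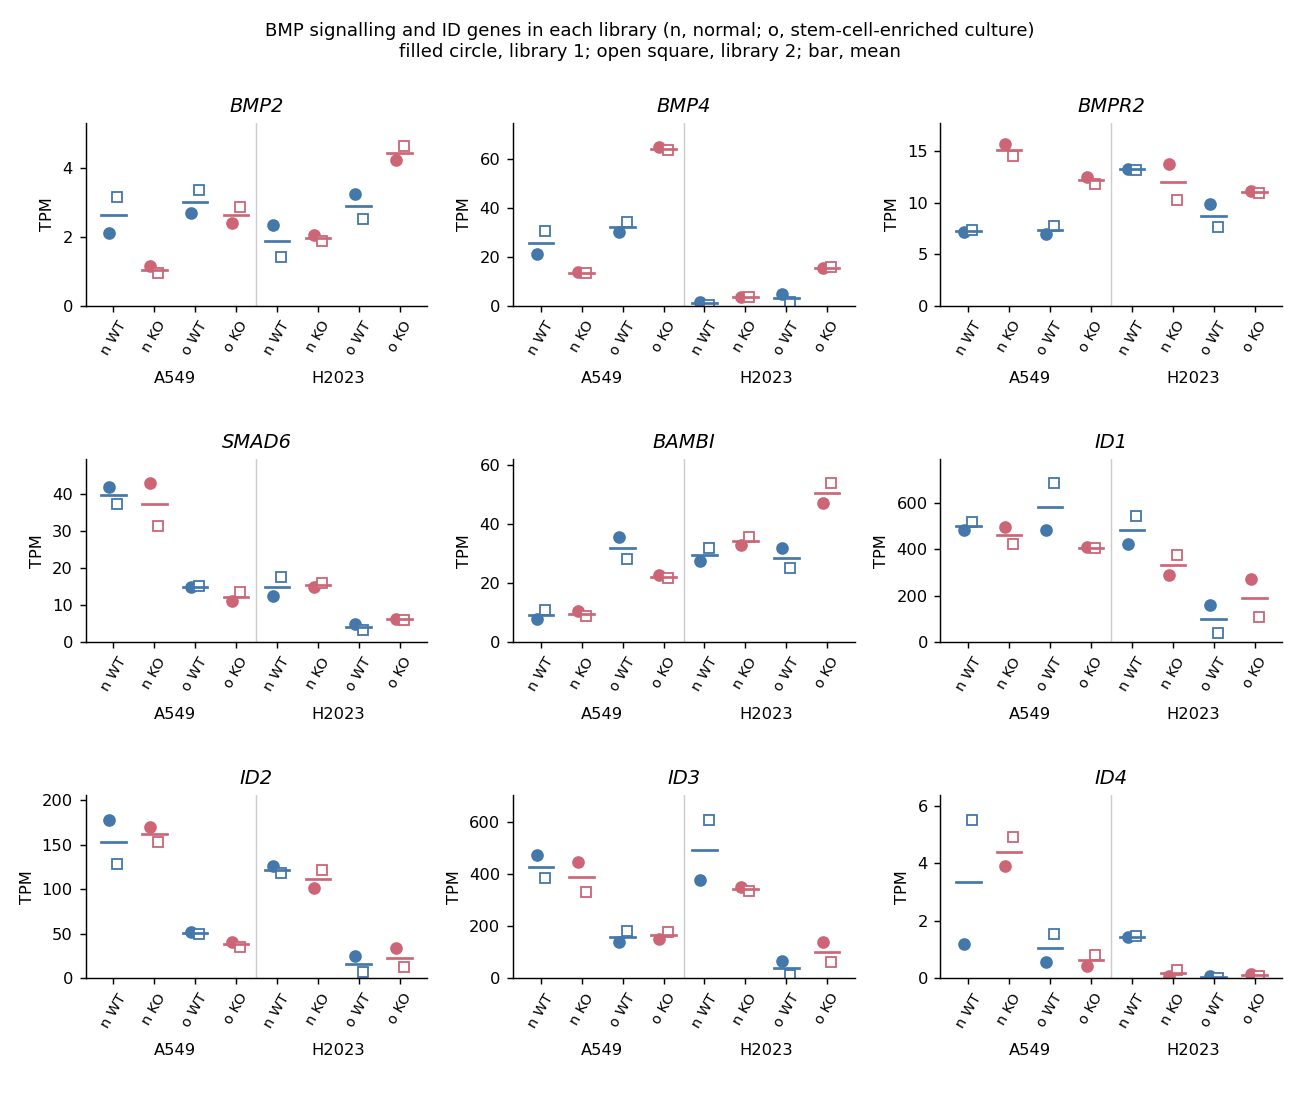
TPM (y axis, from 0) of each gene in each library, by line, culture (n, normal; o, stem-cell-enriched) and genotype (blue, wild type; red, labelled knockout); circles are library 1, open squares library 2 and bars the mean of 2. ID2, ID3 and SMAD6 are lower in stem-cell-enriched culture in both lines, ID1 is much lower there in H2023 wild type, from 423 and 544 to 159 and 40.2 TPM, and BMP4 is highest in stem-cell-enriched A549 libraries labelled knockout, at 63.3 and 64.5 TPM.

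The first question is how stem-cell-enriched culture compared with normal culture within each line and genotype. SMAD6 and ID2 fell in all 4 comparisons, ID3 fell in 3, and the ligands BMP2 and BMP4 rose in the libraries labelled knockout of both lines. Calls are at an adjusted p under 0.05 in limma, fitted on log2(TPM + 1) over all genes, and fold changes are on that log2 scale, which understates the change of low genes. In A549 wild type 1 of the 9 genes rose and 3 fell, where 19.0% of all genes rose and 21.6% fell. In the A549 libraries labelled knockout 3 rose and 4 fell, against 10.9% and 9.87% of all genes. In H2023 wild type none rose and 5 fell, against 3.96% and 17.4% of all genes. In the H2023 libraries labelled knockout 3 rose and 2 fell, against 7.68% and 19.2%. SMAD6 and ID2 were 2 of the 9 that were called in 1 direction in all 4 comparisons, as were 6.86% of all genes, 5.38% lower and 1.48% higher. The median log2 fold changes of the 9 genes were 0.02, -0.29, -1.24 and -0.09 in that order, beside -0.01, -0.01, -0.18 and -0.12 over all genes. The H2023 profiles were shifted as a whole, with a median of -0.24 in wild type and -0.17 in the libraries labelled knockout over genes with a mean of at least 1 TPM, and the values here are not corrected for it unless said.

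**Figure D3:**
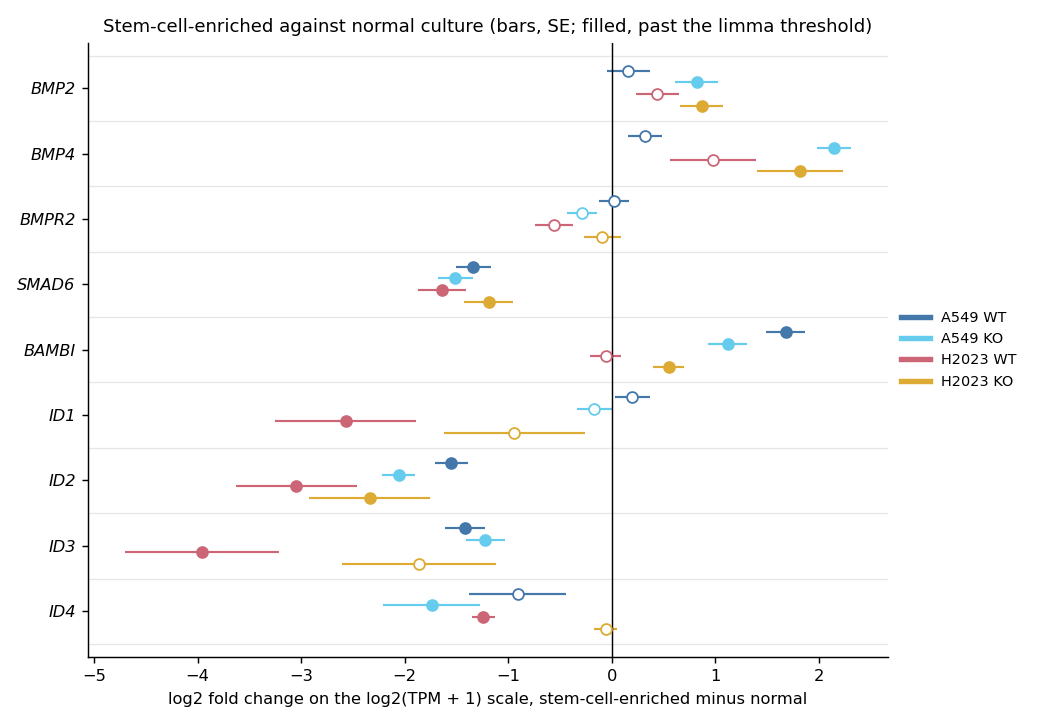
Log2 fold change of stem-cell-enriched over normal culture (x axis, log2(TPM + 1) scale; bars are SE) for the 9 genes (y axis) in each line and genotype; filled points passed the limma threshold. SMAD6 and ID2 lie left of 0 with filled points in all 4, whereas ID1 is filled in H2023 wild type only, at -2.57.

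ID2 encodes a broadly expressed ID protein. In A549 wild type it stood at 178 and 129 TPM in normal culture and at 52.1 and 49.8 TPM in stem-cell-enriched culture. In the A549 libraries labelled knockout it stood at 170.1 and 153 TPM and then at 41.05 and 35.05 TPM. The groups did not overlap in either genotype, and ID2 fell by 1.55 (SE 0.159, adjusted p = 0.000238) and by 2.06 (SE 0.159, adjusted p = 0.000275). In H2023 wild type the normal-culture libraries held 126 and 118 TPM and the stem-cell-enriched ones 24.7 and 7.57 TPM. Under the knockout label these were 101 and 121 TPM, then 33.65 and 13.0 TPM. Again no library of one culture reached the other, and the fold changes were -3.05 (SE 0.585, adjusted p = 0.0159) and -2.34 (SE 0.585, adjusted p = 0.0294). Both A549 calls held without any 1 library. Each H2023 call was lost without either normal-culture library of that genotype or without its second stem-cell-enriched library. Without 1 library the values ran from -3.84 to -2.26 in wild type and from -3.0 to -1.69 in the libraries labelled knockout.

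ID3, often co-regulated with ID1, took a similar course. It stood at 471 and 383 TPM in A549 wild type in normal culture against 138 and 180.2 TPM in stem-cell-enriched culture. In the A549 libraries labelled knockout it stood at 447 and 333 TPM against 152 and 179 TPM. The cultures did not overlap, and ID3 fell by 1.42 (SE 0.191, adjusted p = 0.000802) and by 1.22 (SE 0.191, adjusted p = 0.00362). The H2023 wild-type libraries held 378 and 608 TPM in normal culture and 67.6 and 12.8 TPM in stem-cell-enriched culture, a fall of mean level from 493 to 40.2 TPM and a log2 fold change of -3.96 (SE 0.746, adjusted p = 0.0152). The H2023 libraries labelled knockout held 352 and 333 TPM and then 139 and 63.0 TPM, and the value of -1.86 (SE 0.746, adjusted p = 0.116; -2.42 to -1.29 without 1 library) did not pass although the groups did not overlap. The H2023 wild-type call was lost without either normal-culture library, and its values without 1 library ran from -5.12 to -2.81. Both A549 calls were lost when all 16 libraries shared 1 estimate of spread (adjusted p = 0.0613 and 0.15). In that setting the value of the H2023 libraries labelled knockout passed (-1.86, adjusted p = 0.0246).

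ID1, the most abundant of the 9 by mean TPM, did not pass in A549. A549 wild type held 482 and 519.7 TPM in normal culture and 482 and 686 TPM in stem-cell-enriched culture, so the ranges overlapped and the log2 fold change was 0.2 (95% interval -0.19 to 0.59). The A549 libraries labelled knockout held 498 and 424 TPM and then 410.4 and 405 TPM, which did not overlap, a value of -0.17 (95% interval -0.56 to 0.22). The lower ends of both intervals lie above the ID2 and ID3 values in the same libraries. In H2023 wild type ID1 was at 423 and 544 TPM in normal and at 159 and 40.2 TPM in stem-cell-enriched culture, a fall by 2.57 (SE 0.682, adjusted p = 0.0423). The H2023 libraries labelled knockout held 291 and 376 TPM and then 274 and 107 TPM, and the value of -0.94 (SE 0.682, adjusted p = 0.355; -1.61 to -0.27 without 1 library) did not pass although the groups did not overlap. The H2023 wild-type call was lost when fold changes were centred on the median of all genes (-2.32, adjusted p = 0.0657). It was also lost without the second stem-cell-enriched library or without either normal-culture library. Its values without 1 library ran from -3.55 to -1.59.

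ID4 was the low member of the family. It stood at 1.18 and 5.51 TPM in A549 wild type and at 3.89 and 4.92 TPM in the A549 libraries labelled knockout in normal culture, against 0.58 and 1.53 TPM and 0.42 and 0.83 TPM in stem-cell-enriched culture. It fell by 1.74 (SE 0.471, adjusted p = 0.0346) in the libraries labelled knockout, a call lost without any 1 of the 4 libraries (adjusted p 0.0864 to 0.161), and the wild-type value was -0.91 (adjusted p = 0.158). H2023 wild type held 1.43 and 1.47 TPM in normal culture and 0.07 and 0.0 TPM in stem-cell-enriched culture, a fall by 1.24 (SE 0.112, adjusted p = 0.00228) that held without any 1 library. In the H2023 libraries labelled knockout ID4 was at 0.28 TPM or below in both cultures, so no fall could be seen from that level.

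Among the inhibitors, SMAD6 fell and BAMBI mostly rose. SMAD6 stood at 42.0 and 37.3 TPM in A549 wild type in normal culture and at 14.8 and 15.2 TPM in stem-cell-enriched culture, and at 43.0 and 31.4 TPM and 11.1 and 13.5 TPM in the A549 libraries labelled knockout. H2023 wild type held 12.4 and 17.5 TPM, then 5.05 and 3.21 TPM. The H2023 libraries labelled knockout held 15.0 and 16.02 TPM, then 6.36 and 6.08 TPM. No group of one culture overlapped the other, and the log2 fold changes lay close together at -1.34, -1.51, -1.64 and -1.19 (SE 0.169 to 0.234, adjusted p = 0.000616, 0.000935, 0.00689 and 0.0132). The first 3 calls held without any 1 library, and the call in the H2023 libraries labelled knockout was lost without any 1 of the 4 (adjusted p 0.0536 to 0.0767).

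BAMBI in A549 moved the other way from SMAD6. Wild-type libraries held 7.74 and 10.8 TPM in normal and 35.6 and 28.0 TPM in stem-cell-enriched culture, a rise by 1.68 (SE 0.188, adjusted p = 0.000357). Those labelled knockout held 10.6 and 8.83 TPM, then 22.6 and 21.8 TPM (a rise by 1.12, SE 0.188, adjusted p = 0.00494). In both genotypes each stem-cell-enriched library lay above both normal-culture libraries, and both calls held without any 1 library. H2023 wild type was level at 27.4 and 31.8 TPM in normal culture and 31.9 and 25.1 TPM in stem-cell-enriched culture, a log2 fold change of -0.06 (95% interval -0.42 to 0.3), and these ranges overlapped. The H2023 libraries labelled knockout held 32.8 and 35.5 TPM, then 46.9 and 54.0 TPM, a rise by 0.55 (SE 0.149, adjusted p = 0.0385) that was lost without any 1 of the 4 libraries (adjusted p 0.0712 to 0.173).

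The ligands passed as higher in stem-cell-enriched culture only in the libraries labelled knockout. By limma the difference between genotypes in that rise passed for BMP4 in A549 alone, as given below. It did not pass for BMP4 in H2023 (0.84, adjusted p = 0.843). Nor did it pass for BMP2 in A549 (0.66, adjusted p = 0.21) or H2023 (0.43, adjusted p = 0.843). In A549 labelled knockout BMP4 held 13.9 and 13.4 TPM in normal culture, then 64.5 and 63.3 TPM, a rise by 2.15 (SE 0.165, adjusted p = 0.000271) that held without any 1 library. In H2023 labelled knockout the values were 3.75 and 3.67 TPM, then 15.3 and 15.8 TPM, a rise by 1.82 (SE 0.416, adjusted p = 0.0224). The libraries of the 2 cultures stood well apart in both lines. Wild-type BMP4 did not pass in either line: A549 held 21.2 and 30.5 TPM and then 30.1 and 34.1 TPM (0.32, adjusted p = 0.155), with overlapping ranges, and H2023 held 1.61 and 0.56 TPM and then 5.0 and 1.64 TPM (0.98, adjusted p = 0.144). BMP2, a close relative of BMP4, was low throughout. Its A549 libraries labelled knockout held 1.15 and 0.96 TPM, then 2.4 and 2.85 TPM, a rise by 0.82 (SE 0.209, adjusted p = 0.0279). The H2023 ones held 2.05 and 1.87 TPM, then 4.22 and 4.63 TPM (a rise by 0.87, SE 0.207, adjusted p = 0.025). Wild-type BMP2 did not pass: A549 held 2.1 and 3.15 TPM and then 2.68 and 3.35 TPM (0.16, adjusted p = 0.585), with overlap. The H2023 wild-type libraries held 2.35 and 1.42 TPM, then 3.24 and 2.53 TPM (0.44, adjusted p = 0.178), higher without overlap. The 2 BMP2 calls and the H2023 BMP4 call were each lost without any 1 of their 4 libraries (adjusted p from 0.0739 to 0.135), with all 3 values still above 0. At a pseudocount of 0.1 the H2023 BMP4 call was lost as well (adjusted p = 0.0533). The receptor BMPR2 passed in none of the 4 comparisons, with values from -0.56 (adjusted p = 0.076) in H2023 wild type to 0.02 in A549 wild type.

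The second question is how the libraries labelled knockout differed from wild type within each line and culture. Few of the 9 genes passed. BMPR2 rose in A549 normal culture and BMP4 rose in A549 stem-cell-enriched culture, which made 1 of 9 in each, where 10.8% and 13.2% of all genes were called, with 4.54% and 6.04% of all genes higher. In H2023 limma called none of the 9 in either culture, where 0.0% of all genes were called; at an unadjusted p under 0.05 the counts were 3 of 9 (BMP4, ID1 and ID4) in normal culture, beside 18.2% of all genes, and 2 of 9 (BAMBI and BMP4) in stem-cell-enriched culture, beside 15.5%. Of the 9 genes, 3 and 5 had an adjusted p under 0.05 in the authors' deposited table for A549 (normal culture first) and 2 and 2 in that for H2023, beside 22.1%, 20.7%, 10.8% and 5.07% of all genes with an adjusted p there. The median log2 fold changes of the 9 genes were -0.1, -0.27, -0.14 and 0.57, beside -0.03, 0.03, 0.01 and 0.06 over all genes.

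**Figure D4:**
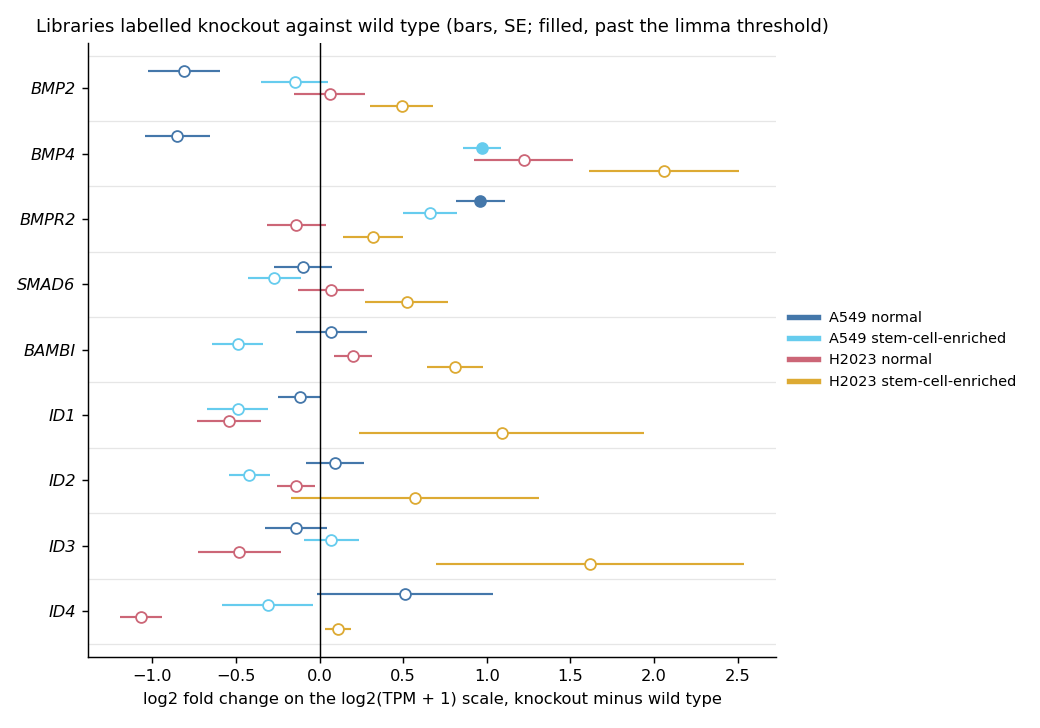
Log2 fold change of libraries labelled knockout over wild type (x axis, log2(TPM + 1) scale; bars are SE) for the 9 genes (y axis) in each line and culture; filled points passed the limma threshold. BMP4 lies left of 0 in A549 normal culture, at -0.85, and right of 0 in the other 3 comparisons, at 0.97 to 2.06; the long bars of ID1, ID2 and ID3 in H2023 stem-cell-enriched culture reflect the gap between the 2 libraries of each group.

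BMP4 gave the widest spread of knockout differences. In A549 normal culture the wild-type libraries held 21.2 and 30.5 TPM and the libraries labelled knockout 13.9 and 13.4 TPM, so the groups did not overlap, yet the value of -0.85 (SE 0.194, adjusted p = 0.0536) did not pass. In A549 stem-cell-enriched culture the wild-type libraries held 30.1 and 34.1 TPM and those labelled knockout 64.5 and 63.3 TPM, a rise by 0.97 (SE 0.112, 95% interval 0.69 to 1.25, adjusted p = 0.0085). In H2023 the libraries labelled knockout were the higher ones in both cultures, by 1.22 (SE 0.294, adjusted p = 0.192) and by 2.06 (SE 0.449, adjusted p = 0.233; 1.47 to 2.65 without 1 library), without passing. In the authors' deposited table the BMP4 log2 fold changes were -0.92 (adjusted p = 0.00291), 0.98 (adjusted p = 2.59e-08) and, in H2023 stem-cell-enriched culture, 2.17 (adjusted p = 0.000408). In normal culture the H2023 value there was 1.48 (adjusted p = 0.0637). By limma the A549 normal value passed when only genes with a mean of at least 1 TPM were tested (adjusted p = 0.0219). The A549 stem-cell-enriched call was lost without any 1 of the 4 libraries (adjusted p 0.0601 to 0.116, values of 0.89 to 1.06), a setting in which 0 to 38 of all genes were called, and with all 16 libraries in the fit (adjusted p = 0.0524).

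The knockout difference of BMP4 itself differed between conditions. Stem-cell-enriched minus normal culture, it was larger by 1.83 in A549 (SE 0.234, 95% interval 1.29 to 2.36, adjusted p = 0.00938), the 1 of 9 genes called where 6.65% of all genes were. Leaving out the second normal-culture library labelled knockout ended that call (1.8, adjusted p = 0.0519). In H2023 the same difference was 0.84 (SE 0.588, adjusted p = 0.843), and limma called none of the 9 genes and 0.0% of all genes for it; at an unadjusted p under 0.05 it was 2 of 9 (BAMBI and ID4) and 7.1% of all genes. Between the lines in normal culture, the BMP4 knockout difference was larger in H2023 than in A549 by 2.08 (SE 0.459, adjusted p = 0.0131), a call lost without the second H2023 wild-type library (1.7, adjusted p = 0.0551). In stem-cell-enriched culture the difference between lines was 1.09 (SE 0.459, adjusted p = 0.135). Of the 9 genes, 2 were called between lines in normal culture, beside 12.1% of all genes, and 1 in stem-cell-enriched culture, beside 16.3%. Without 1 library the latter count was 1 to 6; it was 6 without the first H2023 wild-type library and 1 in each of the other 7 cases.

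BMPR2, the type II receptor that binds BMP ligands and activates the type I receptor, was higher in the A549 libraries labelled knockout. In normal culture the wild-type libraries held 7.13 and 7.37 TPM and those labelled knockout 15.7 and 14.5 TPM. Here each library labelled knockout lay well above both wild-type libraries, and BMPR2 rose by 0.96 (SE 0.147, 95% interval 0.59 to 1.33, adjusted p = 0.0234). In stem-cell-enriched culture the values were 6.93 and 7.79 TPM against 12.5 and 11.8 TPM, which did not overlap, and the value of 0.66 (SE 0.16, adjusted p = 0.0565) missed the threshold. H2023 gave 13.3 and 13.2 TPM against 13.7 and 10.3 TPM in normal culture, with overlapping ranges, and 9.85 and 7.66 TPM against 11.2 and 10.99 TPM in stem-cell-enriched culture. The H2023 values were -0.14 (95% interval -0.63 to 0.35) and 0.32 (95% interval -0.19 to 0.82). In normal culture the knockout difference was smaller in H2023 than in A549, by -1.11 on the log2 scale (SE 0.223, adjusted p = 0.00828), and this held without any 1 library. The A549 normal call was lost without any 1 of the 4 libraries (adjusted p 0.138 to 0.171, values of 0.91 to 1.02), where 0 of all genes were called. The A549 values in the authors' deposited table were 1.21 (adjusted p = 1.01e-13) in normal and 0.58 (adjusted p = 0.00587) in stem-cell-enriched culture.

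BMP2 in A549 normal culture was at 2.1 and 3.15 TPM in wild type and at 1.15 and 0.96 TPM in the libraries labelled knockout, without overlap; its value of -0.81 (SE 0.214, adjusted p = 0.0728) did not pass. The authors' deposited table gives -1.25 (adjusted p = 0.0078). The values in the other 3 comparisons were -0.15, 0.06 and 0.49 (adjusted p = 0.679, 0.92 and 0.345). In A549 normal culture the ligand thus lay lower and the receptor BMPR2 higher in the same libraries labelled knockout.

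Among the inhibitors, BAMBI differed by line in stem-cell-enriched culture. It stood at 35.6 and 28.0 TPM in A549 wild type and at 22.6 and 21.8 TPM in the libraries labelled knockout (-0.49, SE 0.151, adjusted p = 0.0966). In H2023 it stood at 31.9 and 25.1 TPM in wild type and at 46.9 and 54.0 TPM in the libraries labelled knockout (0.81, SE 0.166, adjusted p = 0.231). The groups did not overlap in either line, and the difference between the lines passed at 1.3 (SE 0.249, 95% interval 0.76 to 1.84, adjusted p = 0.00427), also without any 1 of the 8 libraries. BAMBI in the authors' deposited table was -0.55 (adjusted p = 0.0334) in A549 and 0.74 (adjusted p = 0.0249) in H2023 in this culture. SMAD6 gave -0.27 (adjusted p = 0.309) in A549 and 0.52 (adjusted p = 0.407) in H2023 in stem-cell-enriched culture, and its difference between the lines, 0.79 (SE 0.294, adjusted p = 0.0912), did not pass. In normal culture SMAD6 and BAMBI gave values between -0.1 and 0.2, and the SMAD6 groups overlapped in both lines.

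The ID genes did not pass in any knockout comparison. In A549 normal culture ID1, ID2, ID3 and ID4 gave -0.12, 0.09, -0.14 and 0.51 with overlapping groups, and the 95% intervals were -0.45 to 0.2 for ID1, -0.35 to 0.53 for ID2 and -0.61 to 0.33 for ID3. In A549 stem-cell-enriched culture ID1 held 482 and 686 TPM in wild type and 410.4 and 405 TPM under the knockout label (-0.49, SE 0.183, adjusted p = 0.144), and ID2 was 52.1 and 49.8 TPM against 41.05 and 35.05 TPM (-0.42, SE 0.121, adjusted p = 0.0866). Both genes were lower in each library labelled knockout, whereas ID3 overlapped (0.07, 95% interval -0.35 to 0.48). For ID1 the authors' deposited table gives -0.55 (adjusted p = 0.0365) and for ID2 -0.5 (adjusted p = 0.0452). In H2023 normal culture ID1 (-0.54, SE 0.192, adjusted p = 0.273) and ID3 (-0.48, SE 0.249, adjusted p = 0.386) were lower in both libraries labelled knockout. ID2 overlapped there (-0.14, adjusted p = 0.559). The wild-type libraries there held 1.43 and 1.47 TPM of ID4 and those labelled knockout 0.07 and 0.28 TPM (-1.07, SE 0.126, adjusted p = 0.123). The authors' deposited table gives -0.53 (adjusted p = 0.0276) for ID1, -0.53 (adjusted p = 0.0572) for ID3 and -2.92 (adjusted p = 6.07e-05) for ID4.

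In H2023 stem-cell-enriched culture ID1, ID2 and ID3 had higher means in the libraries labelled knockout, by 1.09, 0.57 and 1.62, but the groups overlapped for ID1 and ID2 and the SEs were 0.852, 0.743 and 0.921. For ID3 the wild-type libraries held 67.6 and 12.8 TPM and those labelled knockout 139 and 63.0 TPM, which also overlapped. Without 1 library the values ran from 0.11 to 2.07 for ID1, from -0.23 to 1.36 for ID2 and from 0.47 to 2.78 for ID3, so the sign of the ID2 value rested on single libraries. Each library labelled knockout did exceed the wild-type library of the same number for each of these genes. Whether equal numbers mark matched cultures is not given in the labels. The 95% interval of ID3, -0.96 to 4.2, covers both a fall and a large rise at this spread. BMP2, BMP4, BMPR2, SMAD6 and BAMBI, 5 of the 9, were higher in both libraries labelled knockout than in both wild-type libraries in this comparison, where 28.6% of all genes were.

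The rest of the pathway was described from a list of 70 BMP pathway genes, of which 44 beside the 9 had rows; 17 others were not analysed here. In the knockout comparisons 3 of these 44 rose and 3 fell in A549 normal culture, and 4 rose and 3 fell in A549 stem-cell-enriched culture. The A549 calls made up 13.6% and 15.9% of the 44, beside 10.8% and 13.2% of all genes. Limma called none of them in H2023; at an unadjusted p under 0.05 there were 9 (20.5%, normal) and 8 (18.2%, stem-cell-enriched), beside 18.2% and 15.5% of all genes. Adjusted p values under 0.05 in the authors' deposited table numbered 13 of 40 (32.5%) and 11 of 42 (26.2%) in A549 (normal culture first) and 7 of 36 (19.4%) and 2 of 38 (5.26%) in H2023, beside 22.1%, 20.7%, 10.8% and 5.07% of all genes. The 44 genes had median log2 fold changes of 0.12 in both A549 cultures beside -0.03 and 0.03 over all genes.

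By role, the A549 limma calls fell on receptors, extracellular modulators, 1 ligand, targets and 1 E protein. None fell on a SMAD transducer (0 of 4) or further intracellular or membrane inhibitor (0 of 8) in either culture. Where 10.8% and 13.2% of all genes were called, groups of 4 and 8 are too small to tell whether a role was spared. Of the 8, SKIL (0.55, adjusted p = 0.0055) and TOB1 (0.62, adjusted p = 0.015) passed in A549 normal culture in the authors' deposited table. None of the 8 passed there in A549 stem-cell-enriched culture, and no SMAD transducer did in either culture. BMPER, a secreted BMP-binding modulator, rose in both A549 cultures. Wild type held 0.29 and 1.32 TPM in normal culture and the libraries labelled knockout 6.18 and 3.79 TPM (1.76, SE 0.362, adjusted p = 0.0433). In stem-cell-enriched culture wild type held 0.39 and 1.02 TPM and the others 19.6 and 24.1 TPM (3.77, SE 0.256, adjusted p = 0.00298). RUNX2, a transcription factor of bone formation and a BMP target, rose in both as well. Its values were 1.2 and 0.64 TPM against 5.48 and 6.29 TPM in normal culture (1.86, SE 0.228, adjusted p = 0.0153), and 0.16 and 0.22 TPM against 4.32 and 3.51 TPM in the other (2.04, SE 0.176, adjusted p = 0.0046). NBL1, a secreted BMP antagonist, fell in both. Its values were 34.1 and 37.2 TPM against 15.99 and 13.8 TPM (-1.21, SE 0.128, adjusted p = 0.0122), and 36.9 and 41.4 TPM against 28.0 and 25.8 TPM (-0.52, SE 0.121, adjusted p = 0.0499). BMPER, RUNX2 and NBL1 thus passed in both cultures, each with 2 wild-type libraries on one side and 2 libraries labelled knockout on the other. The share of all genes that passed in both cultures was not counted, so whether this is many cannot be told.

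In A549 normal culture the type I receptors went in opposite directions. ACVR1 rose, at 8.72 and 8.28 TPM against 14.7 and 15.9 TPM (0.78, SE 0.144, adjusted p = 0.0347) and BMPR1B fell, at 15.7 and 13.6 TPM against 6.48 and 6.8 TPM (-1.03, SE 0.159, adjusted p = 0.0234). The co-receptor RGMB fell there too, at 7.75 and 7.35 TPM against 3.23 and 3.41 TPM (-0.98, SE 0.179, adjusted p = 0.0333). In A549 stem-cell-enriched culture the ligand BMP6 fell, at 7.42 and 13.1 TPM against 0.65 and 0.36 TPM (-2.86, SE 0.303, adjusted p = 0.00694), in the same libraries in which BMP4 rose. FST, which encodes follistatin, an antagonist of activins and some BMPs, fell from 5.66 and 4.92 TPM to 0.06 TPM in both libraries labelled knockout (-2.57, SE 0.171, adjusted p = 0.00298). MSX2, a homeobox BMP target, rose, at 13.0 and 10.5 TPM against 25.5 and 31.7 TPM (1.22, SE 0.177, adjusted p = 0.0151), and TCF4, an E protein, was the fourth gene to rise (1.02, adjusted p = 0.0413). As for the 9 genes, each of the named A549 calls was lost without any 1 library of its comparison, with adjusted p between 0.0575 and 0.249, and the values kept their direction. BMPER in normal culture was also not called at a pseudocount of 0.1, nor TCF4 at that pseudocount or with all 16 libraries in the fit. NBL1 in stem-cell-enriched culture was not called with all 16 libraries in the fit or with library number as a block.

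In H2023, where no pathway gene passed, the largest values among genes with a mean of at least 1 TPM and groups that did not overlap are given as values only. In normal culture BMPER held 2.81 and 3.78 TPM in wild type and 0.18 and 0.26 TPM under the knockout label (-1.81, adjusted p = 0.11), the opposite side from A549. FST held 10.8 and 7.97 TPM against 25.4 and 21.2 TPM (1.24, adjusted p = 0.143), and HEY1, a Notch and BMP target, held 1.0 and 4.19 TPM against 0.68 and 0.42 TPM (-1.06, adjusted p = 0.355). In stem-cell-enriched culture ACVRL1, a type I receptor known from endothelium, held 1.32 and 3.8 TPM against 11.1 and 16.3 TPM (2.12, adjusted p = 0.233). Its partner ENG, or endoglin, held 1.05 and 1.01 TPM against 3.08 and 3.34 TPM (1.05, adjusted p = 0.212), and BMP6 held 0.82 and 1.8 TPM against 3.45 and 2.82 TPM (0.87, adjusted p = 0.291). BMPER fell short of that mean in this culture, at 0.85 and 1.76 TPM against 0.18 and 0.11 TPM (-0.98, adjusted p = 0.241), and was added after its values were seen; the authors' deposited table gives -2.98 (adjusted p = 0.00152) for it here and -3.85 (adjusted p = 6.81e-12) in normal culture. The endothelial marker PECAM1 stayed at or below 2.76 TPM in all libraries.

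**Figure D5:**
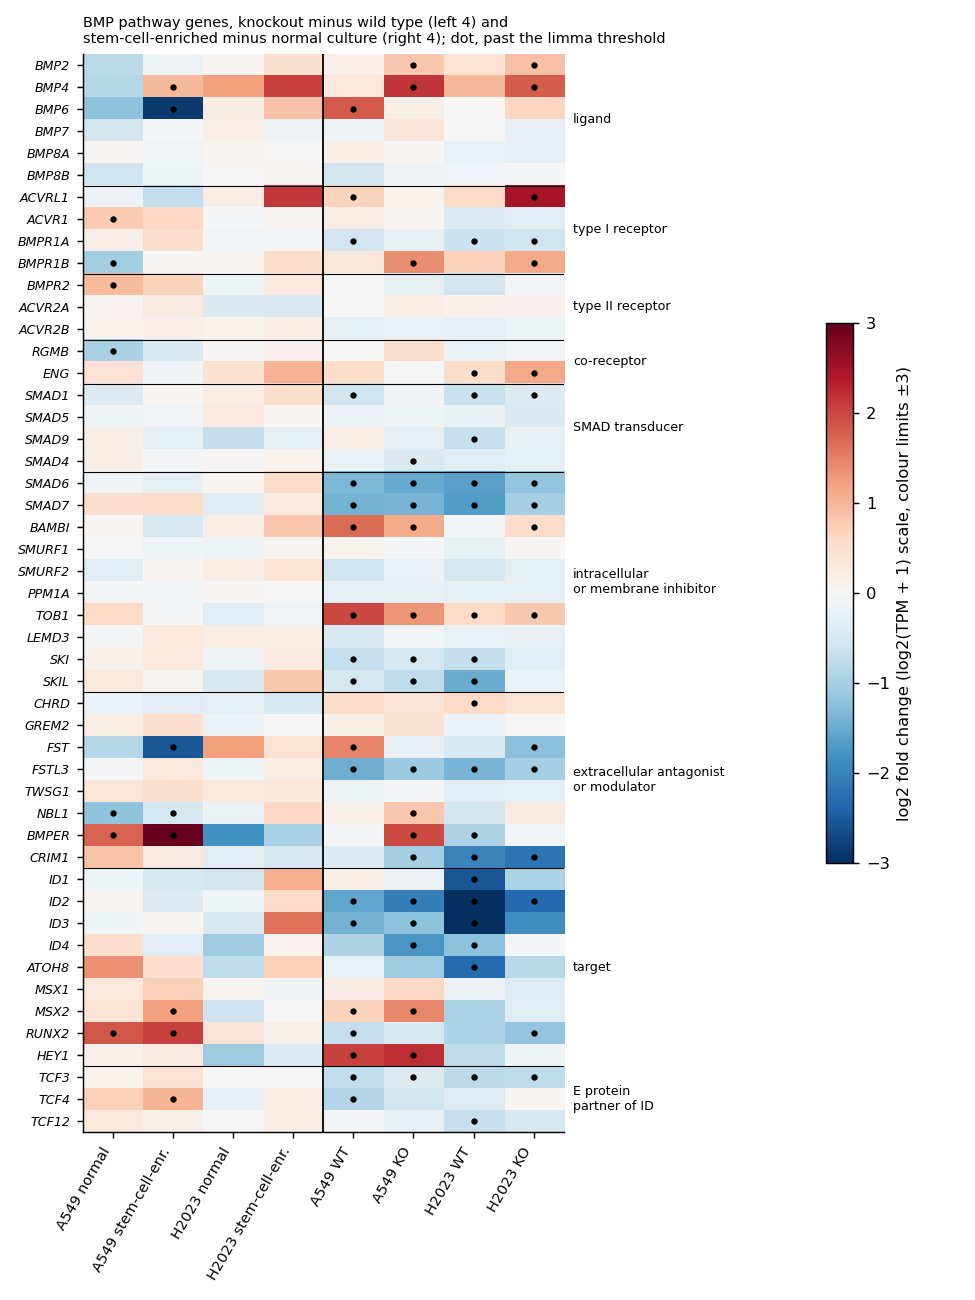
Log2 fold change (colour, log2(TPM + 1) scale, limits of ±3) of 49 BMP pathway genes (rows, by role) whose highest group mean reached 1 TPM, for knockout minus wild type (left 4 columns) and stem-cell-enriched minus normal culture (right 4 columns); dots mark genes past the limma threshold. SMAD6, SMAD7, FSTL3, ID2 and TCF3 are dotted and blue in all 4 culture columns and TOB1 is dotted and red in them.

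For culture, of the 44 other pathway genes 7 rose and 10 fell in A549 wild type, 6 rose and 7 fell in the A549 libraries labelled knockout, 3 rose and 12 fell in H2023 wild type, and 4 rose and 8 fell in the H2023 libraries labelled knockout. In that order the calls made up 38.6%, 29.5%, 34.1% and 27.3% of the 44, beside 40.6%, 20.8%, 21.4% and 26.9% of all genes, and the difference in share was not tested. Called in the same direction in all 4 were the members ID2 and SMAD6 and, among the 44, SMAD7, FSTL3, TCF3 and TOB1, which is 4 of 44 where 6.86% of all genes were called so. These 4 names were chosen after their values were seen. SMAD7, the other inhibitory SMAD, fell by 1.42, 1.4, 1.68 and 1.02 in the order just used (SE 0.224 to 0.275, adjusted p = 0.00169, 0.00403, 0.01 and 0.0369). Its mean level went from 10.1 to 3.08 TPM in A549 wild type and from 15.2 to 3.85 TPM in H2023 wild type, so both inhibitory SMADs fell together. FSTL3, a follistatin-like antagonist, fell by 1.47, 1.12, 1.39 and 1.03, and TCF3, an E protein that ID proteins bind, fell by 0.73, 0.4, 0.78 and 0.76. TOB1, an antiproliferative protein that binds receptor SMADs, rose by 1.97, 1.33, 0.59 and 0.82. In the H2023 libraries labelled knockout SMAD7, FSTL3 and TCF3 lost their calls without any 1 library (adjusted p 0.0632 to 0.164) and when centred on the median of all genes. TOB1 lost its call in H2023 wild type (adjusted p 0.0668 to 0.157) and TCF3 in A549 labelled knockout (adjusted p 0.0596 to 0.127) without any 1 library. FSTL3 in A549 labelled knockout and H2023 wild type, and TCF3 in H2023 wild type, lost theirs without at least 1 library, with adjusted p up to 0.118, 0.0735 and 0.143.

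The remaining culture changes differed by line or role, and those named here are not all of them. BMPR1A, a type I receptor, fell in 3 of 4 comparisons (-0.57 in A549 wild type, -0.64 in H2023 wild type and -0.6 in H2023 labelled knockout), and BMPR1B rose in both lines among the libraries labelled knockout (1.4 in A549, adjusted p = 0.00175, and 1.13 in H2023, adjusted p = 0.0246). The co-repressors SKI and SKIL, which restrain SMAD-driven transcription, fell in A549 in both genotypes and in H2023 wild type. ATOH8, a BMP and SMAD target, fell in H2023 wild type by 2.31 (SE 0.374, adjusted p = 0.00979), from a mean of 28.7 to 5.13 TPM, beside the falls of ID1, ID2, ID3 and ID4 there. HEY1 rose in A549 by 2.06 in wild type and 2.21 in the libraries labelled knockout (adjusted p = 0.00109 and 0.00187) and was not called in H2023. MSX2, a BMP target, also rose in A549 only, by 0.66 and 1.45 in that order (adjusted p = 0.0152 and 0.00104). CRIM1, an extracellular modulator, fell in H2023 wild type (-2.0, adjusted p = 0.00144), H2023 labelled knockout (-2.19, adjusted p = 0.000526) and A549 labelled knockout (-1.01, adjusted p = 0.0143). ACVRL1 rose in H2023 labelled knockout (2.47, adjusted p = 0.0051) and A549 wild type (0.67, adjusted p = 0.0327). Among SMAD transducers, SMAD1 fell in A549 wild type, H2023 wild type and H2023 labelled knockout, by 0.59, 0.66 and 0.42, and SMAD5 was called in none. SMAD1 lost its A549 and H2023 calls when fold changes were centred on the median, as did BMPR1A in H2023. SKI lost its calls in A549 labelled knockout and H2023 wild type in that setting too. Of the calls in this group, HEY1 and BMPR1B in A549, SKI in A549 wild type and SKIL in H2023 wild type held without any 1 library. So did MSX2 in A549 labelled knockout, CRIM1 in both H2023 genotypes and ACVRL1 in H2023 labelled knockout. Each of the others was lost without at least 1. The ATOH8 call was lost without the second H2023 wild-type library from normal culture (adjusted p = 0.0591).

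The profiles of the 9 genes over the 8 group means show which of them were alike. Likeness is the root mean square difference between group means of log2(TPM + 1), each gene centred on its own mean, over 14021 genes with a mean of at least 1 TPM. ID2 and ID3 were each other's nearest gene of all, at 0.36, beside their own spreads of 1.24 and 1.27 around their means. The next nearest to both was MTHFD1L, a mitochondrial folate enzyme, at 0.39 and 0.53, and the third was AJUBA for ID2 (0.4) and GLI2, a Hedgehog transcription factor, for ID3 (0.56). ID1 was nearest to HR (0.23), IL18 (0.33) and MYO1E (0.36), and ID2 and ID3 ranked only 2097 and 893 among its neighbours. SMAD6 was nearest to ADM (0.15), the gene of adrenomedullin, then AKAP12 (0.17) and ELOVL2 (0.26). BAMBI was nearest to DHRS3 (0.18), LGSN (0.19) and RAB40B (0.24). BMP4, with the widest spread of the 9 (1.61), was nearest to C1QTNF1 (0.57), ST3GAL5 (0.64) and FSTL4 (0.69). The difference is not scaled to a gene's own spread, so its size cannot be compared between the 9 genes. BMPR2 was nearest to ZNF581 (0.1), GPAM (0.14) and HEBP1 (0.15), BMP2 to CDC42SE2, TNFRSF10A-AS1 and TMED2 (0.17 each), and ID4 to MIR17HG (0.28), MXD3 (0.34) and CSRP1 (0.35). These are descriptions over 8 means that share libraries, with no test.

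The order of the group means differed from gene to gene. For ID2 and ID3 the 4 normal-culture groups ranked above the 4 stem-cell-enriched groups, and the lowest normal-culture group did not overlap the next one below, at 111 against 51.0 TPM for ID2 and 342 against 165 TPM for ID3. For ID1 only the H2023 stem-cell-enriched groups stood at the bottom, at 190.6 and 99.7 TPM, and these 2 overlapped each other. SMAD6 ranked with A549 normal culture at the top, at 39.7 and 37.2 TPM with overlap, and H2023 stem-cell-enriched culture at the bottom, at 6.22 and 4.13 TPM without overlap. For BMP4 the A549 stem-cell-enriched libraries labelled knockout led at 63.9 TPM, clear of the next group, and H2023 wild type in normal culture was last at 1.08 TPM. BMPR2 spanned only 7.25 to 15.1 TPM over the 8 groups.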

How the data were processed

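RNA from 16 libraries was sequenced, and each of 4 deposited tables covers 1 line in 1 culture. The authors' columns hold TPM per library and, per the file headers, a comparison with a mean normalized count (signal), log2 fold change, its standard error, a test score and p-values, named as in DESeq2 output. The submitters' processing notes name HISAT2, StringTie and GRCh38 without versions or roles. The line of each column came from its table's name and the culture, genotype and library number from the column's name. TPM sums ran from 991838 to 998125. For 119 identifiers with several rows, the values were identical and 1 row was kept, which left 18227 genes. Here limma 3.58.1 (R 4.3.3, trend, two-sided, Benjamini-Hochberg over all genes, threshold 0.05) was run on log2(TPM + 1): knockout comparisons on the 4 libraries of a table, culture comparisons and their interactions on the 8 libraries of a line, and differences between lines on all 16. The procedure was tested on simulated data with large planted changes in genes well above 1 TPM and with independent libraries. That test does not cover genes near 1 TPM, smaller changes or libraries that vary together. Alternatives were a pseudocount of 0.1, a mean of at least 1 TPM, all 16 libraries in the fit, centring on the median, the authors' table, a replicate block and leaving out each library. All 9 genes are named; other pathway genes were named if past the threshold in a knockout comparison, with values for the 3 largest in each direction, or the 3 largest without overlap where none passed, and 3 neighbours were named per gene. The genes and lists were chosen with earlier results of these data known.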

Additional observations from a re-analysis of the deposited data

Results flagged for a closer look

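A difference between knockout effects passed the limma test for 3 of the 9 genes. For BMP4 the knockout minus wild-type difference was larger in stem-cell-enriched than in normal culture in A549, by 1.83 on the log2 scale, and larger in H2023 than in A549 in normal culture, by 2.08. For BMPR2 the difference between H2023 and A549 in normal culture was -1.11. For BAMBI the difference between H2023 and A549 in stem-cell-enriched culture was 1.3. The BMP4 values were lost without 1 library each, as given above, and the other 2 were not.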

How the results depend on the processing

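The number of the 9 genes called moved in the knockout comparisons. In A549 normal culture it was 1 as reported, 2 with a mean of at least 1 TPM (BMP4 added), 2 with all 16 libraries in the fit (BMP2 added, -0.81, adjusted p = 0.0196), 2 with a replicate block (BMP4 added, adjusted p = 0.0477) and 3 in the authors' deposited table. In A549 stem-cell-enriched culture it was 1, 2 with a mean of at least 1 TPM (BMPR2 added, 0.66, adjusted p = 0.0335) and 5 in the authors' deposited table. With all 16 libraries in the fit it stayed at 1, but BMPR2 (0.66, adjusted p = 0.0111) took the place of BMP4. In H2023 normal culture it was 0, and 2 in the authors' deposited table; for H2023 in the other culture it was 0, 2 with all 16 libraries (BMP4 and BAMBI, adjusted p = 0.00499 and 0.0225) and 2 in the authors' deposited table. The count over all genes moved in these settings too: in A549 normal culture it was 1971, 2681, 3233 and 2109 in the order above. With a mean of at least 1 TPM it was 2618 for A549 in the other culture, and for H2023 there it was 0, and 1014 with all 16 libraries. The cause was not tested. Without 1 library the count was 0 in all 4 knockout comparisons (lowest and highest 0), 4 to 5 and 5 to 5 for culture in A549 wild type and labelled knockout, 2 to 5 and 0 to 1 in H2023, 0 to 1 and 0 to 0 for the culture differences of the knockout effect in A549 and H2023, and 1 to 3 and 1 to 6 for the line differences in normal and stem-cell-enriched culture. Where a group was left with 1 library, that library was assumed to vary like the other groups. Equal library numbers were not treated as pairs: the correlation over genes of the library 1 minus 2 differences of wild type and knockout was 0.0766, 0.124, 0.0371 and 0.476. With the replicate block the culture counts were 4, 7, 5 and 5 and the interaction counts 1, 0, 2 and 1, as reported. No called value of the 9 genes changed sign under any setting run, but 17 values that had not passed did, with 1 library left out. For knockout minus wild type the lowest and highest values were -0.14 to 0.29 for BAMBI, -0.14 to 0.32 for ID2, -0.35 to 0.07 for ID3, -0.33 to 0.12 for SMAD6 and -0.27 to 1.3 for ID4 in A549 normal culture. They were -0.13 to 0.26 for ID3 and -0.65 to 0.03 for ID4 in A549 stem-cell-enriched culture. H2023 gave -0.18 to 0.29 for BMP2, -0.17 to 0.3 for SMAD6 and -0.34 to 0.05 for BMPR2 in normal culture, and -0.23 to 1.36 for ID2 in the other. For culture they were -0.05 to 0.37 for BMP2, -0.05 to 0.45 for ID1 and -0.06 to 0.09 for BMPR2 in A549 wild type, -0.23 to 0.11 for BAMBI in H2023 wild type, and -0.19 to 0.06 for ID4 and -0.28 to 0.1 for BMPR2 in H2023 labelled knockout. The last 3 also changed sign when centred on the median of all genes (0.18, 0.11 and 0.08). The depth of each library is unknown, which limits what can be said of ID4, BMP2 and other genes near 1 TPM. Mean normalized counts in the authors' deposited table ran from 95.8 to 208.8 for BMP2. For ID4 they ran from 222.4 in A549 normal culture down to 5.82 in H2023 stem-cell-enriched culture, where ID4 has no adjusted p.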
